A study of Mus musculus with 41 samples.

Results

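The comparison described here is the change over time within mouse cells given guide RNAs against Ezh2, from day 7 to day 11 of differentiation towards spinal cord neural progenitors. Its libraries were chosen by the guide and day in their labels, 3 at day 7 and 3 at day 11, which makes 6 of the 41 libraries of the series, and every gene with enough counts to test was included (15204 of 24410 symbols). The 3 libraries of the same cells at day 9 served to place changes within the 4 days between, and 6 libraries of control cells and 6 of cells given guides against Eed, at days 7 and 11, served for comparison. All cells were R1-iCas9, a mouse embryonic stem cell line in which doxycycline induces the nuclease Cas9, and all were exposed to doxycycline and transfected with a synthetic guide. Knockout cells received a pool of 5 crRNAs per gene, and control cells a crRNA that targets nothing in the genome (NT). The medium was N2B27 with bFGF, then with CHIR99021 (a GSK3β inhibitor), then with retinoic acid and Smoothened Agonist (SAG, an activator of hedgehog signalling), and lastly with SAG alone, in all groups alike. The labels call the genotypes Ezh2 KO, Eed KO and NT KO and the cells neural progenitors, and they describe no isolation of clones, so edits can differ from cell to cell.

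Ezh2 is the main catalytic subunit of Polycomb repressive complex 2 (PRC2), whose methylation of histone H3 keeps developmental genes silent in lineages where they are not used. Eed binds the methylated histone and stimulates the enzyme, and Suz12 holds the core of the complex together. In the ventral spinal cord, progenitors patterned by hedgehog signalling divide and give rise to neurons first and glia later, while heterochronic genes such as Lin28a fall and nuclear factor I genes such as Nfia rise.

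The 6 libraries held 10292219 to 21992476 estimated counts, and levels are given as CPM, TMM-scaled counts relative to library size. A gene with no count in a library could still have stood at 0.132 to 0.305 CPM there, the worth of 3 counts, and this limit covers counting error only. Each Ezh2-guide library correlated with another of its group at 0.971 to 0.981 (log2 CPM). Among the libraries used for comparison, replicate 3 of NT at day 11 (0.939) and replicate 3 of Eed at day 11 (0.945) fell under 0.95. The 45S pre-ribosomal RNA gene Rn45s took 12.6% ± 1.55 of counts at day 7 and 6.26% ± 0.531 at day 11 (SD, n = 3 each), and it took less at day 11 in NT as well (14.3% ± 0.357 and 5.73% ± 0.923). Symbols with any count numbered 14860 ± 361 and 15899 ± 542. Neural progenitor genes summed to 6280 to 6715 CPM per library at day 7 and 6525 to 6805 CPM at day 11, against 190 to 221 and 223 to 277 CPM for pluripotency genes, of which Sox2, also a neural progenitor gene and counted in both lists, made 143 and 193 CPM on average. Whether the counting used the strand of reads is not given in the sources used here, so reads of overlapping genes cannot be told apart. In bulk RNA, fewer cells of a type and less RNA per cell cannot be told apart either.

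Between day 7 and day 11, 3072 genes rose (20.2% of those tested) and 2851 fell (18.8%) at an adjusted p under 0.05 (edgeR quasi-likelihood test, Benjamini-Hochberg). Changes of at least 2-fold were more often rises, with 1458 genes up and 584 down. With libraries scaled by their totals alone, the median log2 change of all genes moved from 0.03 to 0.15 and the split became 3902 up and 2022 down. Glial, interneuron, pan-neuronal, matrix and glycolysis genes made up lists with most called members higher at day 11, and DNA replication, mitosis, early heterochronic and ribosomal protein genes made up lists in which every called member was lower. Fold changes below are log2 with their SE, levels are mean CPM ± SD over 3 libraries, and values of single libraries are in the order of replicates 1 to 3.

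**Figure D1:**
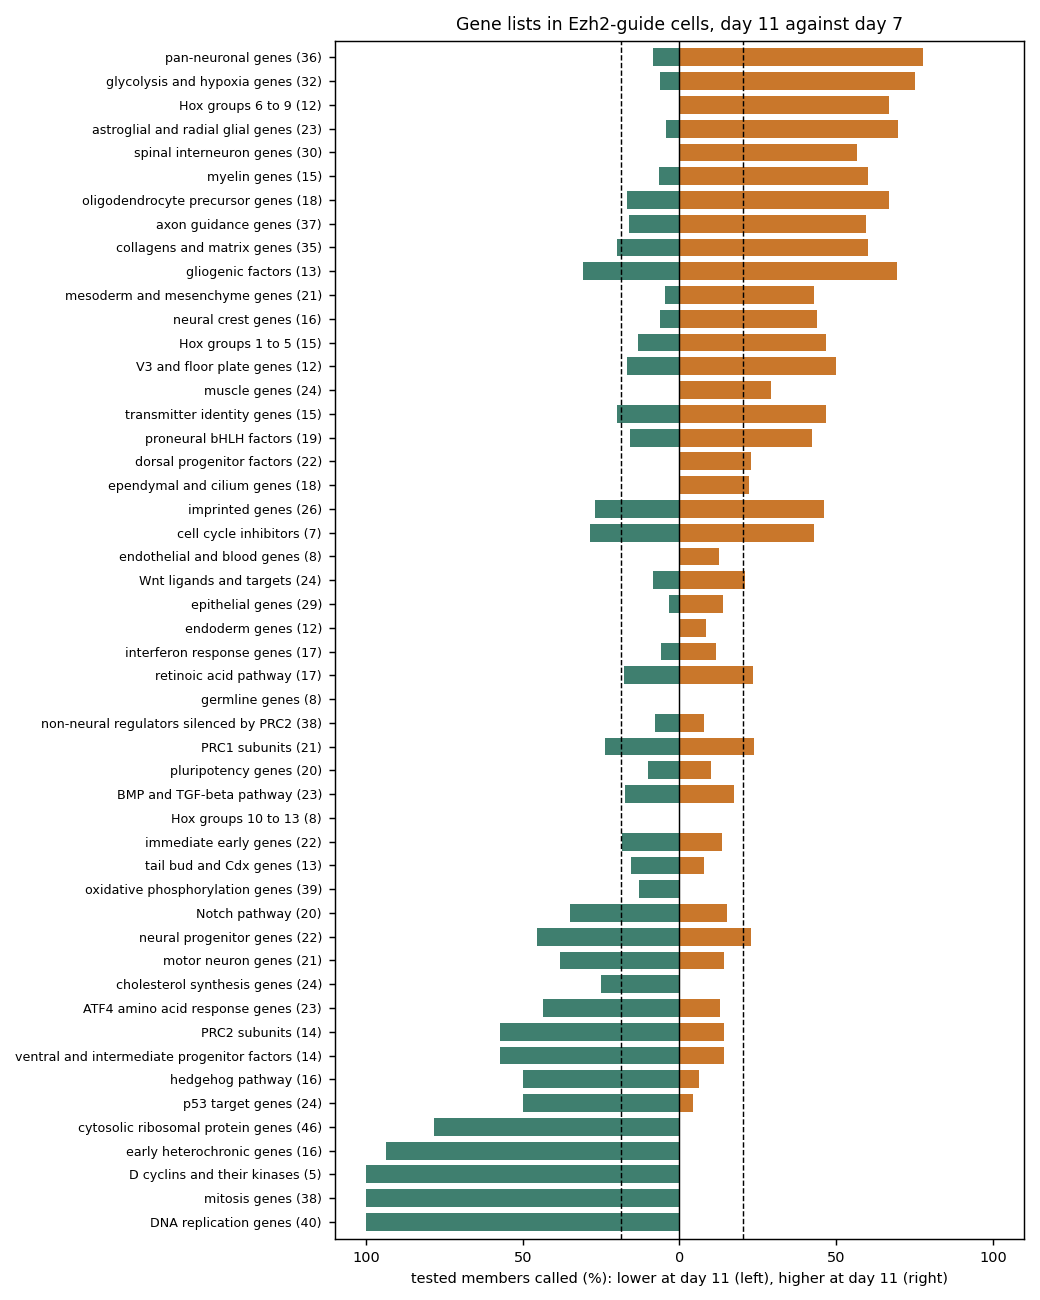
Percentage of the tested members of each gene list that rose (to the right) or fell (to the left) between day 7 and day 11 in Ezh2-guide cells at an adjusted p under 0.05. The dashed lines mark the shares of all tested genes, 20.2% higher and 18.8% lower; replication and mitosis genes fell in every member tested.

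Ezh2's own transcript (chr6:47530274-47595270, GRCm38.p6) stood at 290, 256 and 274 CPM at day 7 and at 186, 153 and 190 CPM at day 11. The libraries of day 7 and day 11 did not overlap, and the change was -0.63 ± 0.0912 (adjusted p = 3.94e-07). It also fell in NT cells, from 278 to 136 CPM on average, and the difference between the time courses did not pass the test (0.40 ± 0.129, adjusted p = 0.119). A transcript level does not measure editing by the guides. Of the 14 PRC2 subunits and partners tested, 2 rose and 8 fell, with a median of -0.30 (2 rose and 5 fell with library totals alone). Among the core genes Eed went from 33.0 ± 4.72 to 18.5 ± 1.79 CPM (-0.84 ± 0.135, adjusted p = 2.63e-06). Suz12 went from 127 ± 2.71 to 103 ± 10.7 CPM (-0.30 ± 0.0981, adjusted p = 0.0127) and lost its call with library totals alone or without replicate 2 of day 11. The histone-binding subunits Rbbp4 and Rbbp7 fell by 0.47 and 0.69 on the log2 scale, while Jarid2, a cofactor that recruits the complex, rose from 169 ± 5.98 to 263 ± 7.51 CPM (0.64 ± 0.0689, adjusted p = 8.24e-10). Phf1, a Polycomb-like partner, rose by 0.59 ± 0.152 (adjusted p = 0.00194). Ezh1, the other catalytic subunit, stood at 22.2 ± 3.63 and 24.7 ± 4.31 CPM with overlapping libraries (adjusted p = 0.587). In PRC1, the second Polycomb complex, 5 subunits rose and 5 fell of 21 (23.8% each, where 20.2% and 18.8% of all genes did). The counts were 8 and 2 with library totals alone, and 3 and 3 without replicate 1 of day 7 or replicate 3 of day 11. The chromodomain gene Cbx2 fell from 129 to 64.0 CPM on average.

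Glial genes gave some of the largest rises. Among gliogenic transcription factors 9 of 13 rose and 4 fell, with a median of 1.30. Nfib (chr4:82290173-82506751), a nuclear factor I gene of the gliogenic switch, read 10.6, 9.88 and 13.5 CPM at day 7, 91.6, 79.5 and 58.9 CPM at day 9 and 167, 166 and 167 CPM at day 11. Its rise of 3.88 ± 0.235 (adjusted p = 4.22e-16) left no overlap between days. Its relative Nfia rose by 2.22 ± 0.174 and Sox9, which starts gliogenesis, by 1.30 ± 0.129, from 143 ± 5.15 to 353 ± 29.8 CPM. The 4 members that fell were Id1 and Id3, which are targets of BMP signalling, and the Ets factors Etv4 and Etv5. Of 23 astroglial and radial glial genes 16 rose and 1 fell (median 1.52). Ptprz1 (chr6:22875315-23052916), a receptor phosphatase of radial glia, read 127, 119 and 135 CPM at day 7 and 1226, 1077 and 1178 CPM at day 11, a rise of 3.19 ± 0.159 (adjusted p = 3.68e-18). The glutamate transporter gene Slc1a3 rose from 21.2 ± 1.72 to 125 ± 3.21 CPM. Aldh1l1, a marker of astrocytes, was at 0.765, 0.916 and 0.193 CPM at day 7 and at 31.1, 30.7 and 34.8 CPM at day 11 (5.66 ± 0.51, adjusted p = 1.24e-11). In this list only the gap junction gene Gja1 fell, from 111 ± 16.4 to 72.7 ± 11.6 CPM (-0.61 ± 0.189, adjusted p = 0.00848), a call that was lost without replicate 2 of day 7. Gfap, the classical astrocyte filament, had too few counts to be tested.

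In the oligodendrocyte lineage 12 of 18 precursor genes rose and 3 fell (median 1.83). Gpr17, a receptor of committed precursors, read 0.612, 1.53 and 0.869 CPM at day 7, then 16.3, 16.5 and 23.6 CPM at day 9, and 46.3, 58.5 and 41.1 CPM at day 11 (5.64 ± 0.349, adjusted p = 7.86e-16). The 3 days did not overlap. Pdgfra, the growth factor receptor of these precursors, stood at 8.16 ± 1.89 CPM at day 7 and 5.78 ± 1.66 CPM at day 9 and reached 36.0 ± 6.40 CPM at day 11. Sox10, which drives oligodendrocyte and neural crest fates, varied more: its libraries read 16.2, 27.4 and 10.9 CPM at day 7 and 76.6, 156 and 69.6 CPM at day 11 (2.48 ± 0.457, adjusted p = 2.62e-05). Olig2, which marks motor neuron and oligodendrocyte progenitors, fell from 212 ± 29.3 to 147 ± 11.3 CPM (-0.53 ± 0.161, adjusted p = 0.00772), while Olig1 rose from 20.7 to 52.7 CPM on average. Of 15 myelin genes 9 rose and 1 fell (median 1.17), with 5 rising without replicate 1 or replicate 2 of day 7 and 4 without replicate 2 of day 11. Bcas1, of early myelinating cells, read 0.153, 0 and 0 CPM at day 7 and 1.58, 8.79 and 5.58 CPM at day 11. Mag was at 0 in every day 7 library and at 0.0877 to 0.745 CPM at day 11. Mobp, also a myelin gene, fell from 2.65 ± 1.19 to 0.346 ± 0.318 CPM, a call lost without replicate 3 of day 7 or either replicate 2 or 3 of day 11. Mog and Opalin were at 0 in all day 11 libraries.

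Early heterochronic genes, which are high in young progenitors, fell in 15 of 16 members and rose in none (median -1.57). Lin28a (chr4:134003330-134019196), an RNA-binding protein that blocks let-7 microRNAs, read 173, 196 and 177 CPM at day 7, 39.2, 39.9 and 54.5 CPM at day 9 and 14.7, 17.6 and 14.1 CPM at day 11. The days did not overlap, and the change was -3.55 ± 0.185 (adjusted p = 6.83e-18). Its paralog Lin28b fell by 2.14 ± 0.128 on the log2 scale, the RNA-binding protein gene Igf2bp1 by 1.84 ± 0.0958, from 1061 ± 35.9 to 296 ± 27.5 CPM, and the nuclear receptor gene Nr6a1 by 2.34 ± 0.122. The chromatin protein gene Hmga2 went from 262 ± 12.5 to 84.8 ± 6.21 CPM. Mycl, the 1 member not called, stood at 177 ± 12.2 and 158 ± 7.96 CPM with overlapping libraries.

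**Figure D2:**
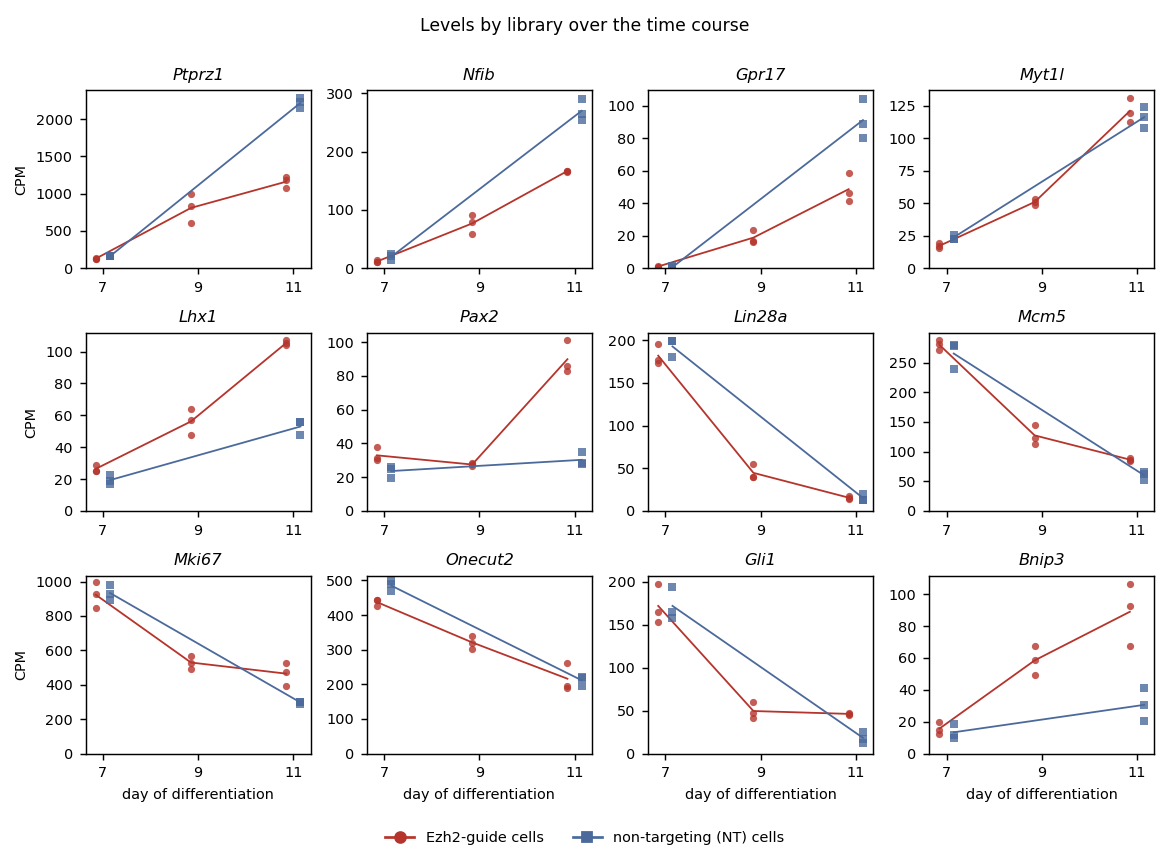
Levels (CPM) of 12 genes by day, with 1 point per library and lines through the group means, for Ezh2-guide cells at days 7, 9 and 11 and for NT cells at days 7 and 11. In Ezh2-guide cells Nfib rose from 11.3 to 167 CPM and Lin28a fell from 182 to 15.5 CPM, with no overlap between these days.

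Cell division genes fell together. All 40 DNA replication genes fell (39 with library totals alone), with a median of -1.27, and all 38 mitosis genes fell, with a median of -1.08. The replicative helicase subunit Mcm5 (chr8:75109468-75128439) read 271, 288 and 281 CPM at day 7, 113, 123 and 145 CPM at day 9 and 89.7, 84.5 and 85.0 CPM at day 11 (-1.70 ± 0.122, adjusted p = 4.58e-14). Each day lay below the one before without overlap. Other helicase subunits fell by 1.30 ± 0.0941 (Mcm4) and 1.60 ± 0.127 (Mcm3) on the log2 scale, and Uhrf1, which recruits the maintenance DNA methyltransferase, by 1.64 ± 0.124. The smallest called change of a replication gene was that of Gins4 (-0.47 ± 0.144, adjusted p = 0.0079). Among mitosis genes, the kinesin gene Kif20a fell from 126 ± 6.44 to 52.5 ± 2.14 CPM and Ect2, which sets the cleavage furrow, from 130 ± 5.45 to 55.7 ± 3.29 CPM. Mki67, the usual marker of dividing cells, read 843, 929 and 997 CPM at day 7 and 472, 396 and 527 CPM at day 11, so that its level at day 11 was still far from 0. All 5 D cyclins and partner kinases fell (median -0.84). Ccnd2 went from 1197 ± 81.9 to 508 ± 19.2 CPM, and Ccnd1 was lowest at day 9 (223 ± 15.9, 79.5 ± 21.3 and 126 ± 13.6 CPM at the 3 days). Of 7 cell cycle inhibitors 3 rose and 2 fell. Cdkn1b rose by 0.48 ± 0.0814 and Cdkn1c by 0.68 ± 0.12, while Cdkn1a, a p53 target, fell by 1.11 ± 0.123 on the log2 scale. The other inhibitor that fell was Cdkn2a, with log2 changes of -1.58 to -0.94 over the alternatives run. Its call was lost without replicate 2 of day 7 or replicate 3 of day 11.

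The promoters of these genes are shown because their members moved together. E2F factors bind TTTCCCGC or TTTGGCGC in replication promoters, and the cell cycle homology region (CHR) TTTGAA is the element of mitosis promoters that the DREAM complex reads. Both strands were searched in the 250 bases before the most upstream RefSeq start, and 11934 of the 15204 tested genes (78.5%) matched a window. An E2F spelling was in 6 of 33 matched replication genes (18.2%), against 2.51% of tested genes and 1.35% of all 27025 promoters. The CHR spelling was in 10 of 31 matched mitosis genes (32.3%), against 10.6% and 16.3%. The 4 windows below are the 120 bases before the start of the members with the smallest adjusted p whose window holds the letters, written 5′ to 3′ on the gene's strand from RefSeq's GRCm38.p6 table, with the matched letters (or their reverse complement) in capitals. The regions are chr1:128359706-128359825 (minus strand) for Mcm6, chr8:95633439-95633558 (plus) for Gins3, chr3:27153879-27153998 (minus) for Ect2 and chr11:99024190-99024309 (minus) for Top2a.
Mcm6: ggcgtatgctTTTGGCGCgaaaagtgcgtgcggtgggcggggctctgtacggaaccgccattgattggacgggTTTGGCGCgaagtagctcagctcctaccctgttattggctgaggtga
Gins3: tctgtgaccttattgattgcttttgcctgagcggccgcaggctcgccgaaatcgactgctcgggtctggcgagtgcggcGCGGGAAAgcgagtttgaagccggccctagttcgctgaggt
Ect2: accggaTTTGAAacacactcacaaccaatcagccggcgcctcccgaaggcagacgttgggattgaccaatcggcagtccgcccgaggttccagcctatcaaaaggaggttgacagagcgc
Top2a: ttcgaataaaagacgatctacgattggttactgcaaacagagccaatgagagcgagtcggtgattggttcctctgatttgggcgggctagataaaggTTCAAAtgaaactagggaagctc
Mcm6, with 2 E2F matches, fell from 127 ± 18.2 to 64.7 ± 8.45 CPM, and Top2a, the mitotic topoisomerase, from 541 ± 36.9 to 246 ± 33.6 CPM. A match of letters is a description of the window and not a binding site.

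Neuronal genes mostly rose. Of 36 pan-neuronal genes 28 rose and 3 fell (median 0.87). Myt1l (chr12:29527590-29923216), a repressor of non-neuronal programmes, read 19.3, 17.0 and 15.2 CPM at day 7, 48.4, 51.0 and 53.2 CPM at day 9 and 131, 113 and 119 CPM at day 11 (2.81 ± 0.154, adjusted p = 2.77e-17). The RNA-binding protein gene Celf4 rose by 2.24 ± 0.124 and Map2, which stabilises dendritic microtubules, from 345 ± 13.5 to 1089 ± 131 CPM. The 3 that fell were the axonal adhesion gene Cntn2 (752, 551 and 685 CPM at day 7, and 243, 252 and 254 CPM at day 11), Elavl2 and the neurofilament gene Nefm. Cntn2 stood at 738 ± 20.6 CPM at day 9, so its fall lay after that day. Among 22 neural progenitor genes 5 rose and 10 fell (6 and 5 with library totals alone). Sox2 rose from 143 to 193 CPM on average, while Pax6 went from 88.2 ± 8.07 to 56.4 ± 10.8 CPM. In the Notch pathway 3 of 20 genes rose and 7 fell (4 with library totals alone). The ligand gene Dner rose from 22.7 to 98.2 CPM on average, and Nrarp, a feedback target, fell from 118 to 66.6 CPM.

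Motor neuron genes ran against the pan-neuronal trend, with 3 of 21 rising and 8 falling (median -0.25). Isl2, a LIM homeodomain factor of postmitotic motor neurons, read 28.7, 28.9 and 31.2 CPM at day 7, 25.9, 22.0 and 29.0 CPM at day 9 and 9.13, 12.3 and 10.1 CPM at day 11 (-1.49 ± 0.224, adjusted p = 9.47e-07). Day 11 lay below both earlier days. Onecut2, of early-born motor neurons, fell from 437 ± 8.73 to 216 ± 39.9 CPM. The 3 that rose were Lmo4, Etv1 and Phox2a, the last from 0.885 ± 0.32 to 3.04 ± 0.402 CPM, a call lost without replicate 1 or 2 of day 7 or replicate 1 or 3 of day 11. Some genes of motor neurons and other neurons were highest at day 9. Chat, the acetylcholine-synthesising enzyme, stood at 10.7 ± 3.15, 24.4 ± 7.58 and 7.32 ± 0.716 CPM at the 3 days. Lhx3 stood at 24.4 ± 2.84, 54.3 ± 4.18 and 27.2 ± 4.70 CPM, and the neurofilament gene Nefl at 497 ± 34.8, 932 ± 24.6 and 417 ± 57.4 CPM. For all 3, the rise to day 9 and the fall from it passed the test, and day 11 against day 7 did not (adjusted p = 0.276, 0.659 and 0.242). The rise and the fall share the day 9 libraries.

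Interneuron genes rose without exception among those called: 17 of 30 rose and 0 fell (median 1.51). Lhx1 (chr11:84517975-84525534), of several interneuron classes, read 29.0, 24.8 and 25.3 CPM at day 7, 47.5, 56.7 and 64.2 CPM at day 9 and 104 to 107 CPM at day 11 (2.00 ± 0.127, adjusted p = 1.6e-15). Sall3 rose by 0.81 ± 0.091. Other members passed the test for a rise after day 9 and not before. Pax2, of inhibitory interneurons, read 30.0, 31.2 and 37.5 CPM at day 7, 27.6, 26.4 and 28.4 CPM at day 9 and 85.6, 101 and 82.7 CPM at day 11 (1.71 between days 9 and 11, adjusted p = 1.89e-07). Evx1, of V0 interneurons, stood at 4.66 ± 0.273, 5.38 ± 1.81 and 22.6 ± 1.00 CPM and Skor1, of dorsal interneurons, at 0.906 ± 0.136, 1.26 ± 0.553 and 13.3 ± 0.957 CPM. Among 15 genes of transmitter identity 7 rose and 3 fell (median 2.66, or 2.50 with genes absent at day 7 set at their bounds). Gad2, which makes GABA, rose by 2.66 ± 0.208, the vesicular inhibitory transporter Slc32a1 by 2.71 ± 0.312 and the vesicular glutamate transporter Slc17a6 by 4.70 ± 0.57. Th, the first enzyme of catecholamine synthesis, held at 7.69 ± 2.43 and 12.5 ± 0.799 CPM at days 7 and 9 and was at 0.536 ± 0.25 CPM at day 11 (-3.87 ± 0.665 from day 7, adjusted p = 8.96e-06).

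Genes of the dorsoventral axis moved in both directions. In the ventral-most list of V3 and floor plate genes 6 of 12 rose and 2 fell (median 1.61). Spon1 of the floor plate rose from 48.2 ± 4.08 to 256 ± 19.8 CPM and the guidance cue Ntn1 from 208 ± 12.9 to 430 ± 14.8 CPM. Sim1, of V3 neurons, reached 28.6 ± 11.1 CPM by day 9 and 29.1 ± 3.29 CPM at day 11 from 4.99 ± 0.675 CPM. The homeobox gene Nkx2-9 fell from 15.7 ± 0.844 to 1.72 ± 0.484 CPM. Of 14 ventral and intermediate progenitor factors 2 rose and 8 fell (median -0.59). Nkx6-1, which spans the ventral progenitor domains, went from 104 ± 8.89 to 47.2 ± 6.38 CPM (-1.14 ± 0.306, adjusted p = 0.00264), and Dbx2, of intermediate progenitors, rose from 0.331 ± 0.141 to 4.23 ± 3.08 CPM. Of 22 dorsal factors 5 rose and 0 fell (3 to 5 rose when 1 library was left out). The share that rose, 22.7%, was near the 20.2% of all tested genes, while 18.8% of all fell. Dbx2 is counted in this list and the one before it, and Nkx2-9 in both ventral lists. Olig3 rose from 2.43 ± 0.881 to 9.05 ± 1.12 CPM, whereas Pax3 stood at 14.6 ± 6.52 and 16.6 ± 3.65 CPM with overlapping libraries.

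Hox genes, which set position along the head-to-tail axis, rose in 7 of 15 members of groups 1 to 5 (2 fell, or 9 rose and 0 fell with library totals alone) and in 8 of 12 members of groups 6 to 9, where 0 fell (median 1.17). Hoxa5 rose from 74.2 ± 11.7 to 227 ± 39.7 CPM and Hoxb8 from 152 ± 9.37 to 298 ± 22.3 CPM. Hoxb9 read 108, 154 and 96.6 CPM at day 7, 85.6, 100 and 179 CPM at day 9 and 303, 351 and 351 CPM at day 11 (1.49 ± 0.289, adjusted p = 5.73e-05). Only day 11 stood apart from the other days. Hoxc6 rose by 1.62 ± 0.243 and Hoxa6 by 2.72 ± 0.377, although RefSeq places Hoxa5 and Hoxa6 within the span of Hoxa3 (chr6:52169059-52213067), where counts can be shared. Of 8 tested genes of groups 10 to 13, 0 passed in either direction, and the list summed to 0.772 to 2.29 CPM per library at day 7 and 1.84 to 5.41 CPM at day 11.

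Of 16 hedgehog pathway genes 1 rose and 8 fell (median -0.44). Gli1 (chr10:127329882-127341579), a direct target of the pathway, read 154, 165 and 198 CPM at day 7, 41.7, 47.3 and 59.9 CPM at day 9 and 44.7, 47.6 and 46.6 CPM at day 11 (-1.89 ± 0.203, adjusted p = 7.86e-10). Days 9 and 11 overlapped and lay far below day 7. The receptor gene Ptch1, also a target, fell less, from 595 ± 18.7 to 515 ± 13.8 CPM (-0.21 ± 0.0759, adjusted p = 0.0257). The 1 gene that rose was the ligand Shh, from 2.05 ± 0.525 to 6.82 ± 1.97 CPM. The next 3 lists had shares near or below those of all tested genes, of which 20.2% rose and 18.8% fell. In the retinoic acid pathway 4 of 17 genes rose (23.5%) and 3 fell (17.6%). Dhrs3, which returns retinal to retinol, rose from 3.08 ± 0.753 to 43.9 ± 14.4 CPM and Cyp26b1, which degrades retinoic acid, from 4.19 ± 0.97 to 25.0 ± 1.65 CPM. The binding proteins Crabp1 and Crabp2 fell from 249 ± 6.19 to 77.4 ± 10.5 CPM and from 220 ± 11.2 to 59.8 ± 8.43 CPM. Among 24 Wnt ligands and targets 5 rose (20.8%) and 2 fell (8.33%), including the secreted inhibitor gene Sfrp2, which went from 617 ± 14.3 to 187 ± 11.2 CPM. Of 23 BMP and TGF-beta genes 4 rose and 4 fell (17.4% each). Id4 rose from 32.4 to 81.8 CPM on average and Id1 fell from 65.3 ± 3.14 to 16.3 ± 1.82 CPM.

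Glycolysis and hypoxia genes rose in 24 of 32 members and fell in 2 (median 1.12), or in 1 without any 1 library other than replicate 2 of day 11. Bnip3, a mitophagy receptor that hypoxia-inducible factors switch on, read 19.6, 15 and 12.5 CPM at day 7, 58.5, 49.2 and 67.7 CPM at day 9 and 92.7, 107 and 67.7 CPM at day 11 (2.49 ± 0.358, adjusted p = 3.81e-07). Vegfa rose by 1.55 ± 0.161, the glycolytic enzyme gene Pfkp by 2.18 ± 0.209 and the oxygen sensor gene Egln3 by 1.97 ± 0.193. The lactate exporter gene Slc16a3 rose from 2.81 ± 2.50 to 38.2 ± 7.07 CPM. Slc2a1, the widely used glucose transporter, fell instead, from 490, 473 and 484 CPM to 155, 167 and 129 CPM (-1.68 ± 0.203, adjusted p = 1.01e-08), while Slc2a3, the neuronal one, rose from 42.8 ± 11.7 to 117 ± 28.3 CPM. The core of the hypoxia response element, ACGTG, was in 15 of 30 matched members (50%), against 21.1% of tested genes and 16.5% of all promoters in the same windows. The pair below, chosen by the same rule, moved in opposite directions while both windows hold these letters. The regions are chr4:119108625-119108744 (plus strand) for Slc2a1 and chr7:138909507-138909626 (minus) for Bnip3, with the core in capitals (in Bnip3 the match on the other strand adds a base).
Slc2a1: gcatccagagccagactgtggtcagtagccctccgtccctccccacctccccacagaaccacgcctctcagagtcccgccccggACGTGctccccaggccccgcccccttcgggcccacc
Bnip3: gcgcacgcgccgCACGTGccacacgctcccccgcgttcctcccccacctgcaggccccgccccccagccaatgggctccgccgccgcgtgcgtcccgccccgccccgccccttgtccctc

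Of 24 p53 target genes 1 rose (4.17%) and 12 fell (50%), with a median of -0.38. Of all tested genes 20.2% rose and 18.8% fell. Ccng1 fell from 753 ± 82.5 to 330 ± 28.7 CPM and the receptor gene Eda2r from 117 ± 5.88 to 53 ± 2.98 CPM, whereas the stress sensor gene Sesn1 rose from 10.5 ± 1.68 to 22.0 ± 0.601 CPM. Of 46 cytosolic ribosomal protein genes 0 rose and 36 fell (20 with library totals alone), with a median of -0.39. Rps2 went from 1809 ± 73.9 to 905 ± 85.2 CPM. These genes have processed pseudogenes, so how reads were shared is uncertain. Among 39 oxidative phosphorylation genes 0 rose and 5 fell (12.8%, below the 18.8% of all genes). The counts were 3 and 3 with library totals alone, and 0 and 3 without replicate 2 of day 7 or replicate 1 or 2 of day 11. In the amino acid response driven by Atf4, 3 of 23 genes rose (13%) and 10 fell (43.5%). Aldh1l2, a mitochondrial folate enzyme, rose against that trend by 1.86 ± 0.197. Of 24 cholesterol synthesis genes 0 rose and 6 fell (25%, near the 18.8% of all genes). Between days 7 and 9, however, 10 of the 24 rose and 0 fell, where 14.6% and 13.2% of all genes did. Between days 9 and 11, 0 rose and 16 fell, where 4.67% and 3.4% of all genes did. Both steps share the day 9 libraries. Among 26 imprinted genes 12 rose (46.2%) and 7 fell (26.9%). The maternally expressed RNAs Meg3 and Rian rose from 533 ± 60.6 to 1489 ± 109 CPM and from 251 ± 15.2 to 586 ± 42.5 CPM. Peg10, paternally expressed, fell from 3039 ± 78.4 to 1468 ± 207 CPM.

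Of 35 collagen and matrix genes 21 rose and 7 fell (median 1.02). Col3a1 of connective tissue rose from 40.3 ± 6.17 to 236 ± 28.4 CPM and Col6a1 from 2.21 ± 0.64 to 21.3 ± 5.26 CPM, while the proteoglycan gene Vcan fell by 0.50 on the log2 scale. Of 37 axon guidance genes 22 rose and 6 fell (median 0.58). Slit1, a midline repellent, rose from 48.3 ± 10.3 to 316 ± 13 CPM and the ephrin receptor gene Epha5 from 35.2 ± 4.68 to 135 ± 4.90 CPM. The netrin receptor gene Unc5a fell from 132 ± 17.6 to 47.7 ± 2.92 CPM. Sema3d (chr5:12383161-12588953), a secreted semaphorin, had one of the largest falls of all genes. It read 88.2, 83.3 and 95.1 CPM at day 7, 31.0, 33.2 and 33.1 CPM at day 9 and 4.74, 3.18 and 2.94 CPM at day 11, with no overlap between days (-4.66 ± 0.224, adjusted p = 1.65e-18).

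Among the 12 largest rises were genes with no count in any day 7 library. Myh8, a perinatal muscle myosin, reached 8.6, 11.8 and 8.56 CPM at day 11, at least 108-fold higher when set against 3 counts over the day 7 group. The plexin gene Plxnb3 reached 3.16, 9.74 and 2.94 CPM, the neuronal factor gene Neurod6 2.90, 3.87 and 3.38 CPM (at least 38.4-fold) and the glutamate receptor gene Grm7 2.37, 2.68 and 2.85 CPM (at least 29.8-fold). Among the 12 largest falls were the somite factor gene Meox1, from 7.64 ± 2.52 to 0.259 ± 0.341 CPM, the Ets factor gene Elf4, from 19.7 ± 3.36 to 1.46 ± 0.371 CPM, and Cldn3, a tight junction gene of epithelia, from 3.25 ± 0.562 to 0.138 ± 0.132 CPM. Zscan4c, which marks a transient state of embryonic stem cells, fell from 2.95 ± 2.02 to 0.0585 ± 0.101 CPM, but its near-identical copies make its count uncertain.

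Markers of cell types other than the neural lineage were present, at levels that differed between lists, and in part rose. Of 24 muscle genes 7 rose and 0 fell (3 and 4 rose without replicate 2 and replicate 3 of day 7), and the list summed to 40.7 to 74.0 CPM per library at day 7 and 123 to 175 CPM at day 11. Actc1, a muscle actin, read 4.74, 1.53 and 2.03 CPM at day 7 and 12.8, 12.5 and 14.1 CPM at day 11; the days did not overlap. At day 7 Ckm, Myod1 and Myh8 were at 0 in all 3 libraries, and at day 11 Ckm, Myf6 and Myl7 were. Myog, a myogenic transcription factor, rose from 0.0765 to 1.61 CPM on average, and Myod1, another, stood at 0, 0.199 and 0.263 CPM at day 11 (adjusted p = 0.218). Of 21 mesoderm and mesenchyme genes 9 rose and 1 fell, and the list summed to 274 to 295 CPM and 673 to 816 CPM. Dcn, a proteoglycan of fibroblasts, rose from 0.813 ± 0.439 to 16.9 ± 3.01 CPM. Of 16 neural crest genes 7 rose and 1 fell (235 to 308 CPM and 448 to 648 CPM). Sums for endothelial and blood genes (4.07 to 9.40 and 7.90 to 15.4 CPM), with haemoglobin genes at 0, and for germline genes (5.40 to 8.64 and 2.81 to 5.46 CPM) were lower than those of muscle genes. The part of these cell types in the rises of matrix and glial genes was not tested. Of 38 non-neural regulators that PRC2 keeps silent in other lineages 3 rose and 3 fell, where 20.2% and 18.8% of all genes did (5 and 2 without replicate 1 of day 7, 2 and 2 without replicate 2 or 3 of day 7, and 2 and 1 or 3 and 1 without replicate 1 or 3 of day 11). Gata3, also of V2b interneurons, rose from 14.2 ± 2.33 to 36.5 ± 5.99 CPM and Tbx2 from 2.59 ± 0.773 to 6.44 ± 1.76 CPM. Counts were also taken for other lists: epithelial (4 rose and 1 fell of 29, or 0 and 3 by DESeq2 and 0 and 5 without replicate 2 of day 11), endoderm (1 and 0 of 12), ciliary (4 and 0 of 18, or 1 and 0 without replicate 2 of day 7), tail bud (1 and 2 of 13), immediate early (3 and 4 of 22) and interferon response genes (2 and 1 of 17, or 0 and 0 without replicate 1 of day 7). Of 20 pluripotency genes 2 rose (Sox2 and Esrrb) and 2 fell (1 fell without replicate 1 of day 7 and 5 without replicate 2 of day 11), with Esrrb going from 6.04 ± 1.09 to 19.4 ± 9.45 CPM and Dppa2 from 4.84 ± 1.19 to 0.918 ± 0.765 CPM.

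Most of the change lay between days 7 and 9. There, 2215 genes rose (14.6%) and 2008 fell (13.2%), or 3041 and 1274 with library totals alone, when the median log2 change of all genes was 0.12. Between days 9 and 11, 710 genes rose (4.67%) and 517 fell (3.4%), 1227 in all, with 793 when replicate 1 of day 9 was left out and 752 when replicate 2 of day 11 was. Both steps use the same 3 day 9 libraries, so a deviation shared by these libraries moves the 2 steps in opposite directions. They held 11614047 to 30958594 estimated counts, with the most in replicate 3. Replication genes fell in 38 of 40 members by day 9 (median -0.97) and in 8 after it (median -0.34), and hedgehog genes fell in 9 members before day 9 (median -0.53) and in 1 after it (0.19). Glycolysis genes likewise rose in 20 members before day 9 and in 2 after it. Interneuron genes rose in 7 members by day 9 (median 0.10) and in 9 after it (1.40), Hox genes of groups 6 to 9 in 3 and 5 (0.10 and 1.06), and matrix genes in 7 and 17 (-0.09 and 0.74), with 8 matrix genes falling by day 9 and 0 after it. Motor neuron genes rose in 8 members and fell in 3 by day 9, and rose in 1 and fell in 10 after it.

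**Figure D3:**
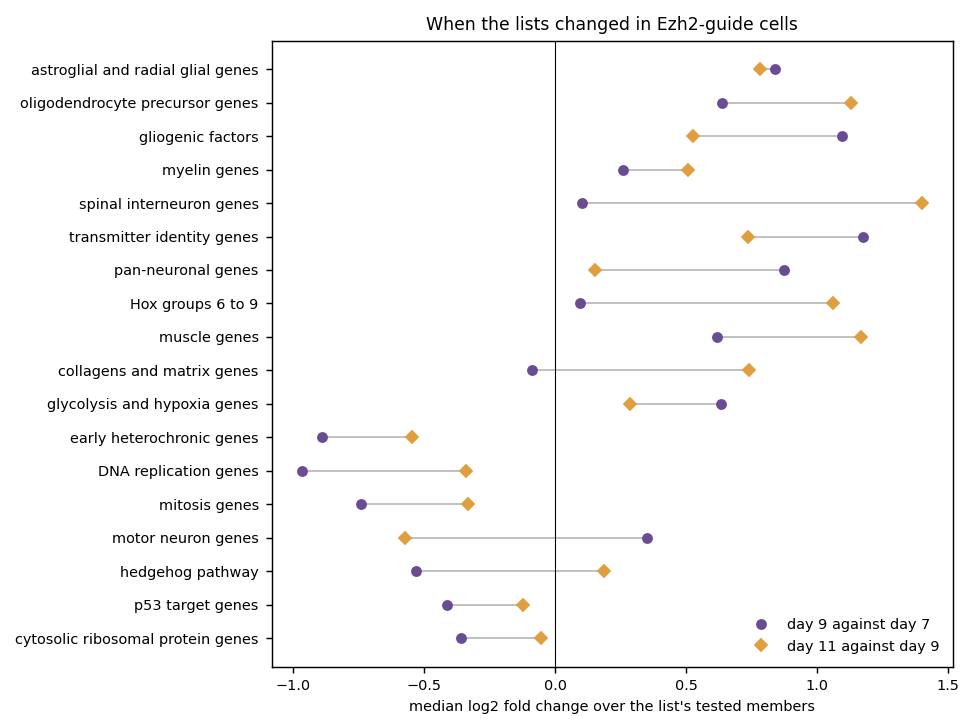
Median log2 fold change of each gene list in Ezh2-guide cells from day 7 to day 9 (circles) and from day 9 to day 11 (diamonds). Replication genes moved mainly in the first step (-0.97 and -0.34) and interneuron genes in the second (0.10 and 1.40).

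NT cells went through a similar course. Across 15204 genes the log2 changes from day 7 to day 11 correlated with r = 0.601 between the 2 genotypes, which share no library (genes are not independent replicates). Of the 5923 genes called in Ezh2-guide cells 4854 (82%) were called in the same direction in NT cells, which is 70.7% of the 6868 called there, and 10 were called in opposite directions. The difference between the time courses (Ezh2 minus NT, an interaction term) passed the test in 215 genes, 153 higher in Ezh2-guide cells (1.01%) and 62 lower (0.408%), with 1902 at an unadjusted p under 0.05. The split was 137 and 84 with DESeq2 size factors and 116 and 92 with library totals alone. The count was 139 or 116 without replicate 1 or 2 of Ezh2 at day 7, 138 or 117 without replicate 2 or 3 of Ezh2 at day 11, 139, 141 or 134 without replicate 1, 2 or 3 of NT at day 7 and 131 without replicate 3 of NT at day 11. It was 161 without the 2 libraries of low agreement. Among the 153 higher genes, 77 fell in both genotypes and 41 fell in NT cells only by the test, so that a smaller fall was the most frequent pattern. Among the 62 lower genes, 43 rose in both.

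**Figure D4:**
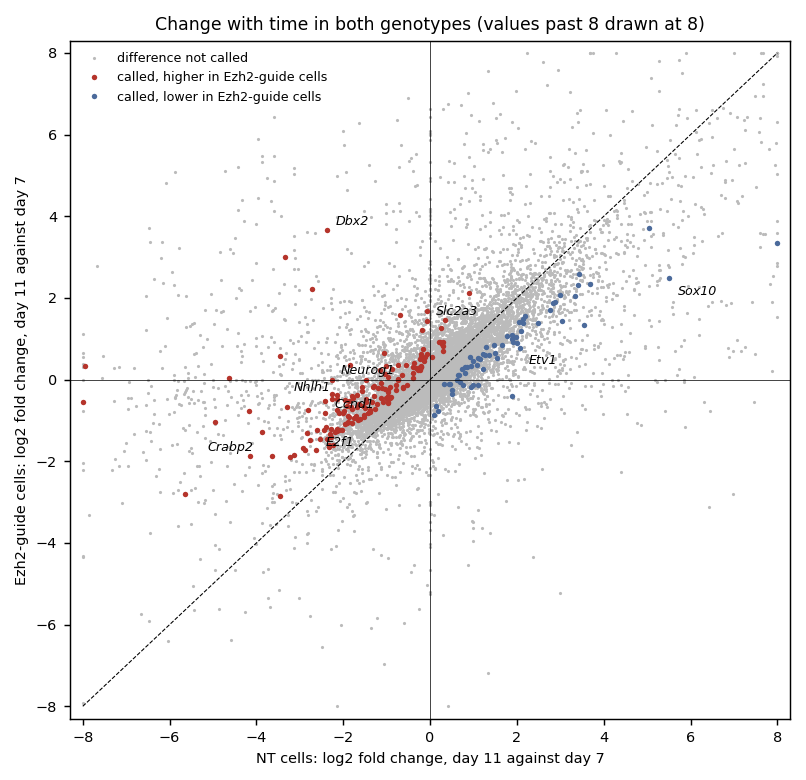
Log2 fold change from day 7 to day 11 in NT cells (horizontal) and Ezh2-guide cells (vertical), 1 point per tested gene, with the 215 genes whose difference passed the test in colour and values past 8 drawn at 8. Proneural genes such as Neurog1 (0.00 in Ezh2-guide cells and -2.27 in NT cells) lie above the diagonal.

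Neurogenic transcription factors held the highest count of called differences among the gene lists, which were chosen with earlier results of these data known. Of 19 proneural and early neuronal factors, 11 were higher in Ezh2-guide cells by the test of the difference and 1 was lower (median difference 0.89). The shares of all genes were 1.01% and 0.408%. The list's median change was 0.09 in Ezh2-guide cells, -1.11 in NT cells and 0.43 in Eed-guide cells. Neurog1 (chr13:56250478-56252180), a proneural gene that commits progenitors to neurons, read 58.9, 56.8 and 60.9 CPM at day 7, 27.5, 31.3 and 36.0 CPM at day 9 and 53.3, 64.7 and 58.4 CPM at day 11. In NT cells it read 63.4, 47.3 and 39.1 CPM at day 7 and 10.2, 16.0 and 4.83 CPM at day 11. At day 11 all Ezh2-guide libraries thus lay above all NT libraries, and the difference between time courses was 2.27 ± 0.385 (adjusted p = 0.000905). Nhlh1, a marker of newborn neurons, read 93.7, 139 and 100 CPM at day 11 against 49.4, 48.7 and 37.9 CPM in NT cells, from 147 ± 3.70 CPM and 158 CPM on average at day 7 (difference 1.40 ± 0.201, adjusted p = 8.6e-05). Neurod4 fell in both, to 94.4 ± 7.17 CPM and to 35.8 CPM on average (1.23 ± 0.211, adjusted p = 0.00101). Neurog2 (1.33 ± 0.272), Neurod1 (1.38 ± 0.296), Nhlh2 (1.28 ± 0.215), Ebf2 (1.00 ± 0.196) and St18 (0.89 ± 0.123) differed the same way, and Ebf1, Ebf3 and Myt1 by 0.76, 0.52 and 0.52. Neurog3 was the 1 lower factor, at 0 in all NT libraries of day 7 and 9.91 to 12.9 CPM at day 11, against 0.506 ± 0.447 and 5.05 ± 1.74 CPM in Ezh2-guide cells. The count of higher factors was 7 without replicate 2 of Ezh2 at day 11, 8 to 10 without any other 1 library, and 9 with either other scaling. Without replicate 3 of NT at day 11 it was 9. Replicate 3 of NT at day 11 is the library of low agreement, and 7 of the 11 (Neurog1, Neurog2, Neurod4, Nhlh1, Nhlh2, Ebf2 and St18) kept their calls in all 20 alternatives. Neurod1 lost its call without replicate 2 of Ezh2 at day 11, Neurog3 without replicate 2 of Ezh2 or replicate 1 of NT at day 7, and Ebf1, Ebf3 and Myt1 in 6, 10 and 14 alternatives.

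**Figure D5:**
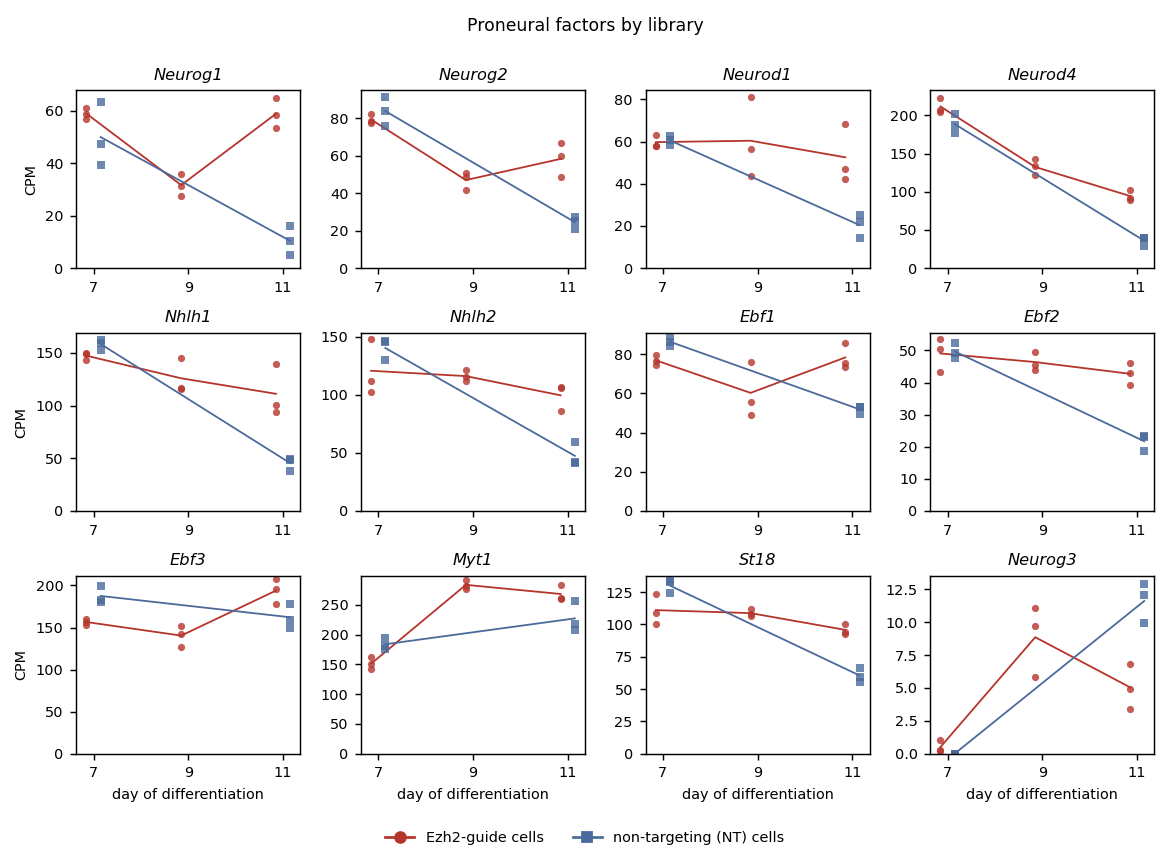
Levels (CPM) of 12 neurogenic transcription factors by day, with 1 point per library and lines through the group means, in Ezh2-guide cells (days 7, 9 and 11) and NT cells (days 7 and 11). At day 11 Neurog1 stood at 53.3 to 64.7 CPM in Ezh2-guide cells and 4.83 to 16.0 CPM in NT cells.

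Other lists held fewer differences. Of 40 replication genes 4 were higher (E2f1, Mcm3, Uhrf1 and Chaf1a) and 0 lower, with a median difference of 0.41. E2f1 kept its call in all 20 alternatives, and Mcm3, Uhrf1 and Chaf1a lost theirs in 6, 10 and 7. E2f1 read 26.4, 21.0 and 22.3 CPM at day 11 against 8.21, 9.83 and 7.04 CPM in NT cells, from 54.1 ± 4.81 CPM and 51.3 CPM on average at day 7 (1.39 ± 0.241, adjusted p = 0.00101). The count was 1 without replicate 1 of Ezh2 at day 7, replicate 3 of Ezh2 at day 11 or replicate 3 of NT at day 11, and 2 without replicate 3 of Ezh2, 1 of NT or 2 of NT at day 7. Of 38 mitosis genes 5 were higher, among them Mki67 (0.66 ± 0.158, adjusted p = 0.0225). That count was 0 without replicate 1 of Ezh2 at day 7, 1 without replicate 1 or 3 of Ezh2 at day 11, 2 or 3 without any other library of day 7 or without replicate 3 of NT at day 11, and 5 to 7 without the others. Ccnd1 read 119, 142 and 117 CPM at day 11 against 31.0, 35.7 and 21.7 CPM in NT cells (1.59 ± 0.283, adjusted p = 0.00148). Gli1 stood at 46.3 ± 1.49 CPM and at 17.4, 25.7 and 12.2 CPM in NT cells at day 11 (1.33 ± 0.291, adjusted p = 0.0114), a call lost without replicate 3 of NT at day 11, and Crabp2 at 59.8 ± 8.43 CPM and at 17.8, 14.8 and 16.2 CPM (1.76 ± 0.24, adjusted p = 5.61e-05). Pax2 differed by 1.10 ± 0.293 (adjusted p = 0.0454), with 27.6, 28.5 and 34.6 CPM in NT cells at day 11, and lost its call in 13 of 20 alternatives. Of 32 glycolysis genes 4 were higher (2 without replicate 2 of Ezh2 or replicate 1 of NT at day 7 or replicate 2 of Ezh2 at day 11, and 8 without replicate 2 of NT at day 11), among them Slc2a3 (1.51 ± 0.351, adjusted p = 0.0196), and the NT median of the list was 0.26. Ntn1 and Etv1 rose less than in NT cells, with differences of -0.94 ± 0.153 and -1.28 ± 0.208 (adjusted p = 0.000559 for both). No difference passed in the gliogenic or heterochronic lists, with medians of -0.25 and 0.21. Of 23 astroglial and radial glial genes 1 was higher and 0 lower (median difference -0.48). The median change of that list was 1.52 in Ezh2-guide cells and 2.87 in NT cells. Its sum at day 11 was 3657 to 3756 CPM per library, against 5132 to 5285 CPM in NT cells. Of 18 oligodendrocyte precursor genes 0 were higher and 1 lower (median difference -0.42).

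Eed-guide cells, given guides against another PRC2 core subunit, served for the last comparison. By edgeR's test 1 gene (0.00658%) differed between the Ezh2 and Eed time courses, with 1133 at an unadjusted p under 0.05, 21 by DESeq2 and up to 8 when 1 library was left out. That gene was Sema3d, which fell further in Ezh2-guide cells, from 88.9 ± 5.92 to 3.62 ± 0.976 CPM, than in Eed-guide cells, from 64.9 to 9.84 CPM on average (difference -1.93, adjusted p = 0.00146). A p that misses the threshold does not show that the 2 courses were alike.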

How the data were processed

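Total RNA was sequenced after ribosomal RNA depletion with a directional kit, per the labels' protocols, although the library source field of the labels reads genomic. The values are the estimated counts per gene symbol that the authors deposited in 1 table for 41 libraries of 15 groups. Fractions occur in 2.95% of these values, which were rounded for the fits. The genome build was mm10 and DESeq2 was used, per the submitters' processing notes, with no version. Which aligner, counting tool and annotation were used is not given in the sources used here.

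Genes passing filterByExpr (15204 of 24410) were fitted together for all 15 groups with edgeR 4.0.16 in R 4.3.3: TMM scaling, glmQLFit and glmQLFTest, two-sided p adjusted by Benjamini-Hochberg over all tested genes of a contrast. The biological coefficient of variation was 0.182. Time courses were compared by interaction contrasts. SEs were derived from the test statistics. A fold over a group without counts is a bound set against 3 counts over that group. The scripts were tested on simulated data.

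Alternatives were DESeq2 1.42.0 (size factors, Wald test), library totals alone, no count filter, only the groups compared, a replicate block, no Rn45s, no library correlating under 0.95 with its group, and each library left out. The labels do not say whether replicates were separate cultures, so p-values measure the spread between these libraries, which may be technical.

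The members, gene lists and tests were chosen with earlier results of these data known. Genes were named by this rule: PRC2 subunits, the 12 highest and 12 lowest fold changes (adjusted p under 0.05, at least 2 CPM, no overlap), the 6 highest and 6 lowest differences from NT and 4 and 4 from Eed, and of each list up to 4 members with the smallest adjusted p and those called against its majority. Other members with values were chosen after their values were seen. Coordinates and promoters are from RefSeq GRCm38.p6. Results for some genes are not reported here.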

Additional observations from a re-analysis of the deposited data

Results flagged for a closer look

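For the genes given here the time course in Ezh2-guide cells differed by the test of the difference itself (edgeR, adjusted p under 0.05). The comparison was with NT cells, or with Eed-guide cells for Sema3d alone. Values below are differences of log2 changes from day 7 to day 11. Among the neurogenic factors the difference from NT was 2.27 for Neurog1, 1.33 for Neurog2, 1.38 for Neurod1, 1.23 for Neurod4, 1.40 for Nhlh1, 1.28 for Nhlh2, 0.76 for Ebf1, 1.00 for Ebf2, 0.52 for Ebf3, 0.52 for Myt1 and 0.89 for St18. Neurog3 differed by -7.13, a fitted value that depends on the prior count because all 3 NT libraries of day 7 were at 0.

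Among the genes with the highest differences from NT were Sec31b (7.75, with all NT libraries of day 11 at 0, so that the size depends on the prior count), Dbx2 (6.03), Actc1 (4.93), Acbd4 (4.67), Mybpc1 (4.03) and Hes2 (3.93). Dbx2, a factor of intermediate progenitors, read 2.19, 2.73 and 7.77 CPM at day 11 in Ezh2-guide cells and 0.774, 0.278 and 0 CPM in NT cells. Actc1, Mybpc1 and Hes2 kept their calls in 6, 7 and 10 of 20 alternatives, and Dbx2 and Acbd4 in all 20. The muscle list, which holds Actc1, had a median change of 1.76 in Ezh2-guide cells, 3.76 in Eed-guide cells and -0.70 in NT cells.

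Beside Neurog3, genes with the lowest differences from NT included Sox10 (-3.01), Scarf2 (-2.30), Kctd12b (-2.20), Serpine2 (-1.61) and Gareml (-1.34). Scarf2, Kctd12b and Gareml each lost their call in 11 of 20 alternatives and Sox10 in 5, while Serpine2 kept it in all 20. Serpine2, a secreted protease inhibitor, rose from 47.6, 65.7 and 53.3 CPM to 145, 157 and 144 CPM, and in NT cells from 33.9, 40.7 and 25.7 CPM to 291, 275 and 257 CPM. Sox10 stood at 2.56, 3.75 and 0 CPM in NT cells at day 7, below all Ezh2-guide libraries of that day. Against Eed-guide cells, Sema3d differed by -1.93.

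Among other genes of the lists, chosen after their values were seen, the difference from NT was 1.39 for E2f1, 0.74 for Mcm3, 0.69 for Uhrf1, 0.87 for Chaf1a, 0.66 for Mki67, 1.59 for Ccnd1, 1.33 for Gli1, 1.76 for Crabp2, 1.10 for Pax2, 1.51 for Slc2a3, -0.94 for Ntn1 and -1.28 for Etv1. Ccnd1, Crabp2, E2f1, Etv1 and Ntn1 kept their calls in all 20 alternatives, and Mki67 and Slc2a3 lost theirs in 4 each.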

How the results depend on the processing

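The counts of genes called from day 7 to day 11 and from day 7 to day 9 stayed within 1.5 times of their values under every alternative run, as did the fall of the Ezh2 transcript, which lay between -0.69 and -0.51 (log2). Between days 9 and 11 the count of 1227 ranged from 752 to 991 when 1 library was left out. The difference from NT was called in 369 genes by DESeq2, in 344 when only the groups compared were fitted and in 596 when low counts were kept, against 215, and in 116 to 252 when 1 library was left out. The difference from Eed was called in 4 genes with library totals alone, 21 by DESeq2, 155 when low counts were kept, 8 when only the groups compared were fitted and 3 without the low-agreement libraries, against 1, and in 1 to 8 when 1 library was left out. For these moves the cause was not tested. No call of a named gene reversed its direction in any alternative, but the majority direction of some gene lists did. Epithelial genes went from 4 up and 1 down to 0 and 3 by DESeq2. Without replicate 2 of Ezh2 at day 11 they stood at 0 and 5. Neural progenitor genes went from 5 up and 10 down to 6 and 5 with library totals alone. Deviations of same-numbered Ezh2-guide libraries from their group means correlated at -0.0107, -0.03 and 0.00875 between days 7 and 11. Between days 9 and 11 replicate 1 gave 0.0801. Such values show no clear pairing by replicate number, but with 3 libraries per group they cannot exclude one. A fit with the replicate block gave 5937, 4286, 1255, 261 and 1 genes in the 5 comparisons. Of 247 calls of named genes from day 7 to day 11, 210 held in all alternatives, but of 35 named differences from NT 15 did. Depth limits genes near 0 CPM most.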
